A study of Mus musculus with 8 samples.

Results

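The tallest Rad21 regions that every library shared were examined here: 181 of the 64772 regions formed when the peaks of 8 lists were merged wherever they overlapped by 1 bp or more. A region was taken if it lay on chromosomes 1 to 19, held a peak in all 8 lists and had a median fold enrichment over the lists of 20 or more, where the fold of a list is that of its highest peak in the region. Of the 6691 regions on these chromosomes that all lists held (called shared regions below), 181 passed and 6510 did not. The rule then set apart 15 members as likely repeat-derived, because their median fold was 80 or more or because they started before position 3200000 of their chromosome, and left 166 others. No list of repeats was used here, so whether the 15 come from repeats was not tested. Since the members were chosen by their fold enrichment, their height is a description and is given without a test, and the division into 15 and 166 is no finding.

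Rad21 is the kleisin subunit that closes the cohesin ring. Cohesin reels chromatin into loops and is halted where CTCF sits on DNA, so ChIP signal for Rad21 piles up at loop anchors, and many of these sites are held in common by all cells. Repeated sequence that an assembly holds in too few copies also collects reads in ChIP libraries, with or without the antibody's target. Mouse autosomes start with a centromere next to long satellite arrays.

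The cells were CH12F3, a mouse B lymphoma line, all with AID knocked out and all given anti-CD40, IL4 and TGF-β for 3 days. Chromatin fixed with formaldehyde was precipitated with a Rad21 antibody and tagmented on the beads with Tn5. There were 4 genotypes at the IgH locus with 2 libraries each. FS_Ca lacked Cg3 to Ia but kept Sg3 and Sa at full length, in cells that also carried a deletion from VH to 3'BCEs on the non-coding IgH allele. FS_Ia lacked Cg3 to Ca with the same full-length switch regions, in aInv cells, a term the labels do not explain. PS_Ca and PS_Ia lacked Sg3 to Sa and kept only parts of Sg3 and Sa, PS_Ca in the parent cells of FS_Ca and PS_Ia in aInv cells. Ia and Ca genotypes thus differ in their parent cells as well. Nothing in the labels says that the paired libraries are separate clones or cultures, so the tests measure only the spread between these libraries, which may be technical.

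The lists held 11288 to 47461 peaks, and the expected background that the folds imply, the only sign of depth in them, was 0.223 to 0.862 fragments per position. At the summit the members had a median over the libraries of 37.5 to 484.5 fragments among those set apart and of 25.5 to 120.5 among the others. The peak names had 3 prefixes, 1 for all FS libraries, 1 for replicate 1 of PS_Ca and PS_Ia and 1 for their replicate 2, so prefix and the kept length of the switch regions cannot be told apart. All coordinates are mm9. No gene was assigned to a region, because no mm9 annotation was used here.

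The 181 members fell into a few towering regions and a long row of regions close to the threshold. The median fold of the 15 set apart ran from 23.2 to 297, with a median of 139. That of the 166 others ran from just above the limit to 75.7, with a median of 21.5, and 134 of them were under 25. Only 9 of the 166 reached 40 or more. Just inside the threshold were the regions at chromosome 12, 78099130 to 78102400 (median fold 20.005), chromosome 4, 149179685 to 149182724 (20.017), and chromosome 11, 113563543 to 113566464 (20.025). Just outside were those at chromosome 16, 10871052 to 10875577 (19.991), chromosome 9, 50968389 to 50972664 (19.986), and chromosome 18, 65648424 to 65651364 (19.976).

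Height in a single library depended on the library. The median fold of the 166 was 18.7 and 23.7 in FS_Ca replicates 1 and 2, 19.3 and 29.4 in FS_Ia, 25.96 and 14.5 in PS_Ca, and 21.0 and 24.7 in PS_Ia. PS_Ca replicate 2 had the lowest fold and FS_Ia replicate 2 the highest. Each stood apart from the other library of its own genotype. If 1 fragment is added to both summit and background, the fold is lowered by an amount that varies with the background. That background was 0.223 fragments in FS_Ia replicate 2 and 0.862 in PS_Ia replicate 2. Folds of different libraries are therefore not on the same scale, and their order by height over background was not compared. As a multiple of the library's own median over all shared regions, the median fold of the 166 was 2.11 ± 0.199 (SD, n = 8), with 1.92 to 2.16 in 7 libraries and 2.57 in FS_Ia replicate 2. The 15 set apart had library medians of 123 to 166, or 14.2 ± 2.28 times the library's median (SD, n = 8).

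**Figure D1:**
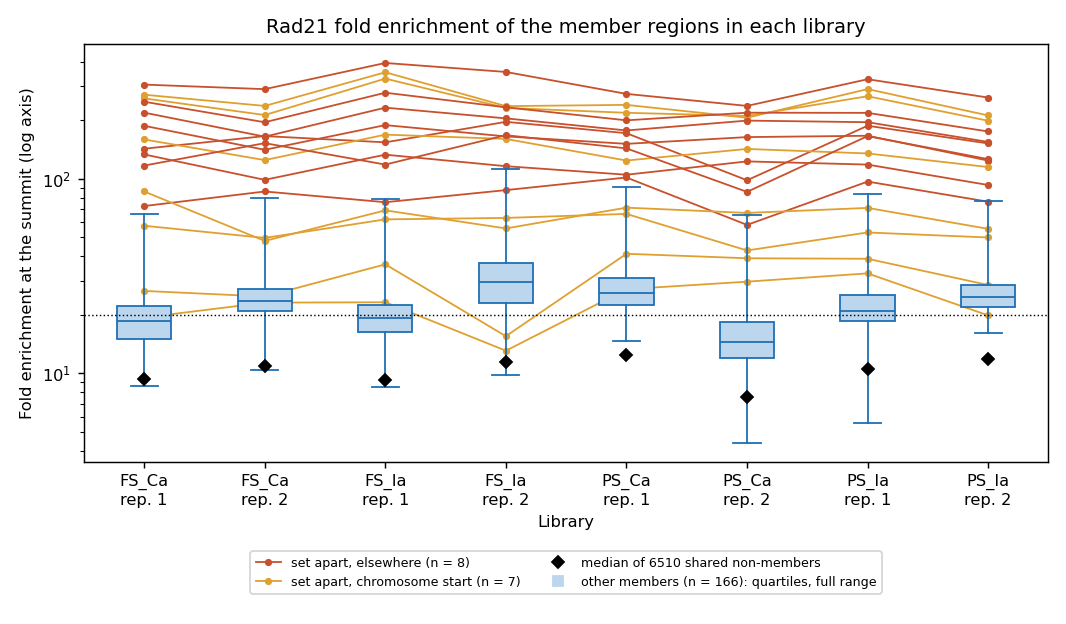
Fold enrichment at the summit (log axis) of the 181 members in each of the 8 libraries. Lines join the 15 regions set apart, 7 at a chromosome start and 8 elsewhere, boxes give the quartiles and whiskers the full range of the 166 others, diamonds the median of the 6510 shared regions that are not members, and the dotted line a fold of 20. The box of PS_Ca replicate 2 lies lowest, with a median of 14.5, and that of FS_Ia replicate 2 highest, at 29.4.

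Standing tall in every library was true of few members. A fold of 20 or more was reached in all 8 lists by 27 of the 181, made up of 13 of those set apart and 14 of the others. In PS_Ca replicate 2, 31 of the 166 others reached it, against 159 in PS_Ca replicate 1. Beyond the members, 1316 of the 6510 remaining shared regions reached 20 in at least 1 list, 808 of them in FS_Ia replicate 2. A fold of 20 stands for different heights over background in libraries of different background, so these counts do not rank the libraries by enrichment.

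The tallest group lay within 5.34 kb of chromosome 2, between 98502272 and 98507612, and consisted of 4 members. The tallest of all, at 98506279 to 98507612, had a fold of 305 and 289 in FS_Ca replicates 1 and 2, 394 and 354 in FS_Ia, 273 and 237 in PS_Ca, and 325 and 262 in PS_Ia, with no summit lower than 375 fragments. Its summits lay within 72 bp of each other. The neighbours at 98502272 to 98503261 (folds 155 to 232) and 98505009 to 98505498 (124 to 189) held 1 peak in each list, with summits within 14 and 33 bp. The fourth, at 98503795 to 98504324, lies between these 2 but had a median fold of 45.0, and so the rule counts it among the others. Its fold was 61.7 and 34.1 in FS_Ca, 71.9 and 26.2 in FS_Ia, 46.8 and 65.5 in PS_Ca, and 43.1 and 36.0 in PS_Ia.

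Of the other regions set apart away from a chromosome start, 4 were short and held 1 peak in each list. The one at chromosome 9, 35112702 to 35113296, had folds of 175 to 277. The one at chromosome 6, 103598928 to 103599405, was 478 bp wide, the narrowest of the 15, with folds of 92.9 to 133. At chromosome 18, 90771435 to 90772031, the fold was 143 and 166 in FS_Ca, 154 and 196 in FS_Ia, 172 and 98.3 in PS_Ca, and 187 and 152 in PS_Ia. At chromosome 2, 181747197 to 181748087, it was 117 and 153 in FS_Ca, 118 and 168 in FS_Ia, 143 and 85.7 in PS_Ca, and 166 and 126 in PS_Ia. The last 2 were lowest in PS_Ca replicate 2 and highest in FS_Ia replicate 2, as the 166 others were in their library medians. The remaining region, at chromosome 1, 85265393 to 85287045, was of another kind: it was 21653 bp wide and held 2 to 15 peaks in a list, with folds of 58.0 to 102.

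The chromosome starts contributed 7 members on 5 chromosomes. Chromosome 9 had the tallest of them, at 2999890 to 3008888 (folds 206 to 353) and 3009126 to 3038420 (199 to 327), and the second was the widest member of all at 29295 bp. Chromosome 12 followed with a region of 492 bp at 3109751 to 3110242 (folds 115 to 169). Chromosome 18 at 3005267 to 3006292 had folds of 47.9 to 86.1 and chromosome 16 at 3122000 to 3124524 had folds of 42.8 to 66.0. Chromosome 11 held the lowest, at 3000989 to 3002993 and 2999964 to 3000724, where FS_Ia replicate 2 had folds of 15.5 and 13.1 against 24.8 to 41.2 and 19.4 to 32.7 in the other 7 libraries. These 2 pass the rule's height on the median and not in every list.

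The spread of the fold over the libraries was described on 2 scales, both taken from the folds that the rule used. For each region the SD of the log2 fold over the 8 libraries was compared with the SD after each fold had been divided by its library's median over the shared regions. The SD was smaller before the division in 12 of the 15 set apart, against 14 of the 166 others (8.43%) and 22.4% of the 6510 remaining shared regions. The median SD of the 15 was 0.24 before and 0.38 after division, and that of the 166 was 0.45 before and 0.33 after. All 7 regions at a chromosome start were among the 12, although the region on chromosome 16 differed little (0.21 and 0.22). The 3 exceptions were the regions at chromosome 18, 90771435 (0.31 before and 0.18 after), chromosome 2, 181747197 (0.32 and 0.20), and chromosome 1, 85265393 (0.26 and 0.14). Counting error alone, taken as Poisson on the summits' heights, would give a median SD of 0.10 for the 15 and of 0.26 for the 166. For the 6510 remaining shared regions it would give 0.39, which is above their median SD after division (0.34). The Poisson value is therefore no lower bound, and spread beyond counting error cannot be read from it. No test was made. The division removes what shifts most shared regions of a library alike, so a smaller SD of the 166 after it is partly built in and is no finding. Whether the remaining shared regions are the same kind of site as the 166 was not tested.

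**Figure D2:**
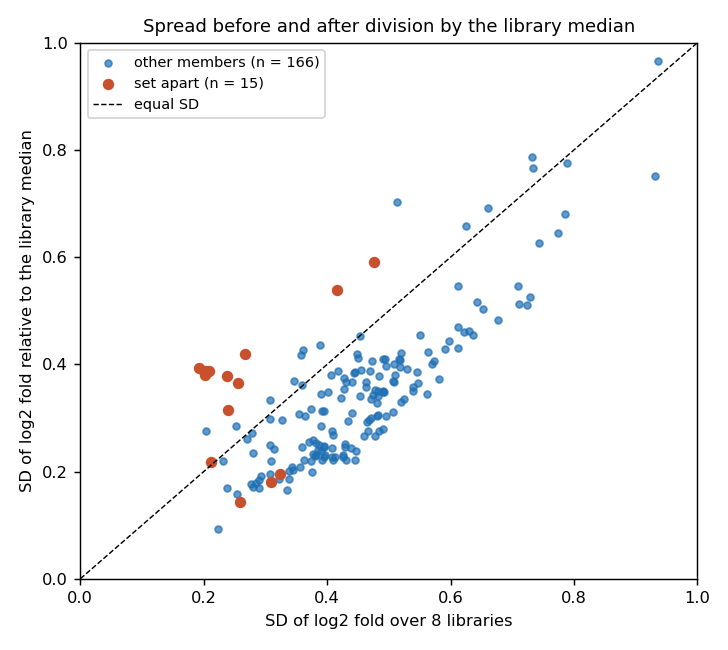
Each point is 1 of the 181 members; the horizontal axis is the SD of its log2 fold over the 8 libraries and the vertical axis the SD after division by the library median. Of the 15 regions set apart, 12 lie above the line of equal SD, and of the 166 others 14 do.

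Among the 166, the leading region was at chromosome 15, 74915858 to 74917581. Its fold was 66.0 and 74.5 in FS_Ca, 61.9 and 85.0 in FS_Ia, 90.9 and 58.6 in PS_Ca, and 79.5 and 76.8 in PS_Ia. After division by the library median its SD was 0.09 on the log2 scale, the lowest of all members, where counting error alone would be about 0.14. By this SD, the tallest member that the rule does not set apart was also the most even one. Since the SD lies below the counting error, whether the region is truly more even than others was not tested.

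Next in height came a stretch of chromosome 1 between 84983319 and 87507574, which held 10 of the 181 members. The stretch was singled out after its values were seen, and its members covered 116466 bp together. The tallest were at 85103771 to 85114464, 84983319 to 84993184 and 85236096 to 85250590, with median folds of 74.7, 73.7 and 63.9. The first of these had 66.0 and 75.1 in FS_Ca, 74.3 and 95.7 in FS_Ia, 88.6 and 44.1 in PS_Ca, and 83.2 and 67.7 in PS_Ia. Further along were 85309603 to 85328296 (median 46.7), 87346913 to 87349722 (49.5) and 87474537 to 87498486 (38.4). The region at 85265393 described above is the only one of the 10 that passed a median of 80. All 4 of the others over 10000 bp wide lay in this stretch, and they held up to 16 peaks in a list. In all 9 members of the stretch that were not set apart, the SD was smaller after division by the library median.

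A few of the tallest 12 differed widely between libraries. At chromosome 17, 13743442 to 13746107, the fold was 44.5 and 28.9 in FS_Ca, 61.9 and 112 in FS_Ia, 60.9 and 56.1 in PS_Ca, and 26.5 and 47.3 in PS_Ia. At chromosome 16, 11422780 to 11426565, it was 35.9 and 38.7 in FS_Ca, 34.0 and 105 in FS_Ia, 25.4 and 15.1 in PS_Ca, and 32.0 and 44.0 in PS_Ia. FS_Ia replicate 2 stood far above its own partner at both. At chromosome 5, 37051917 to 37052498, both FS_Ia libraries were instead the lowest, with 20.1 and 12.3, and the other 6 libraries had 28.7 to 56.1. The remaining region of the 12, at chromosome 15, 101893450 to 101899220, had a median fold of 35.5 and a range of 17.9 to 49.9.

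The 166 also differed in their spread over the libraries, and the extremes given here were picked for it. The low SDs of this paragraph lie below what counting error alone would give (0.26 in each of those regions) and are no finding. Besides the region on chromosome 15, low SDs after division were found on chromosome 11, 97482048 to 97485232 (0.16 on the log2 scale; folds 15.8 to 26.98), on chromosome 14, 21691176 to 21694816 (0.17; 13.9 to 27.7), at 11900952 to 11904007 of chromosome 15 (0.17; 17.6 to 29.3) and at 107191169 to 107199195 of chromosome 9 (0.17; 13.9 to 24.7). The most uneven was at chromosome 13, 74666006 to 74668408, with 13.6 and 10.4 in FS_Ca, 21.7 and 45.8 in FS_Ia, 22.6 and 27.1 in PS_Ca, and 5.55 and 23.1 in PS_Ia (SD 0.97). The region on chromosome 5 came next with an SD of 0.79. At chromosome 3, 95848438 to 95848954 (SD 0.78), the fold was 17.9 and 34.7 in FS_Ca, 10.1 and 9.81 in FS_Ia, 29.3 and 25.8 in PS_Ca, and 34.5 and 37.1 in PS_Ia, so here too FS_Ia was lowest in both libraries. In the regions 19926254 to 19932923 of chromosome 8 (0.77; folds 13.6 to 51.5) and 27656603 to 27659667 of chromosome 17 (0.75; 4.41 to 41.7), the highest library was FS_Ia replicate 2 and its partner was among the 2 lowest. The regions on chromosomes 5 and 3 were picked for their spread, and neither passed the genotype comparison given further on.

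Most of the 166 were wide. Their merged regions had a median width of 3716 bp with quartiles of 2942 and 4807 bp, against 2006 bp over the shared regions that are not members. Widths over 5000 bp were found in 22.9% of them and in 1.98% of the non-members. Merged width grows with every list that is added, so the highest peak of each list was also measured: its median width was 680 to 2856 bp in the 166 and 385 to 1432 bp in the non-members, a ratio of 1.63 to 1.99 over the 8 libraries. The 15 set apart had a median merged width of 990 bp, with 8 under 1000 bp and 3 over 5000 bp. Width and height of a called peak are not separate measures, and no test was made.

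A small group of the 166 was narrow. Under 1000 bp were 9 of them (5.42%, against 4.39% of the non-members), between 313 and 905 bp wide, and all 9 held exactly 1 peak in every list. The narrowest of them lay at 121843544 to 121843856 of chromosome 11 (folds 20.9 to 36.8). It was followed by 94815327 to 94815769 of chromosome 12 (11.6 to 30.6) and 57481796 to 57482254 of chromosome 2 (19.5 to 41.9). In 8 of the 9 all summits fell within 100 bp. They did so in 11 of the 15 set apart, in 17 of the 157 wider members, and in 2.67% of the non-members. A small width limits how far summits can lie apart, and non-members under 1000 bp were not compared, so this closeness is no finding. The SD was smaller before division by the library median in 2 of the 9 and in 12 of the 157 wider members. It was so in 12 of the 15 set apart and in 22.4% of the non-members.

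**Figure D3:**
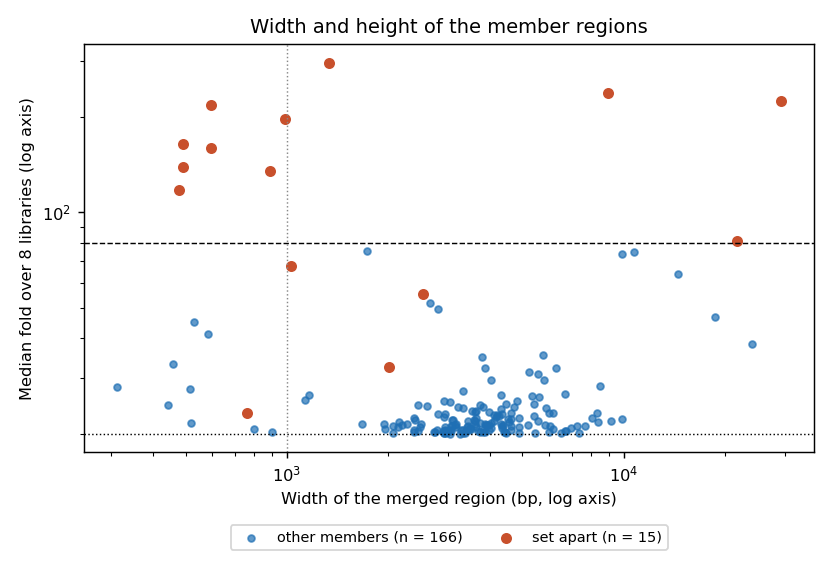
Merged width (bp, log axis) against the median fold over 8 libraries (log axis) for the 181 members; lines mark folds of 20 and 80 and a width of 1000 bp. The 166 others crowd just above a fold of 20 (quartiles of width 2942 and 4807 bp), 9 of them lie left of 1000 bp, and 8 of the 15 set apart do.

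Summit positions were reproducible in most members. The summits of the highest peaks of the 8 lists spanned a median of 174 bp in the 166 (quartiles 129 and 231 bp), 48 bp in the 15 set apart and 261 bp in the non-members. Within 500 bp were 155 of the 166 (93.4%), 14 of the 15 and 86.7% of the non-members. The widest spans came from wide members with several peaks, at chromosome 8, 123318746 (4369 bp; up to 5 peaks in a list), and chromosome 15, 61812471 (3887 bp; up to 6). In the 166, the share with more than 1 peak in a list was 18.1% in PS_Ca replicate 2, which has the shortest list, and 50.6% in PS_Ca replicate 1.

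The few members lay mostly far apart, and some had another shared region close by. Neighbours among the 166 were a median of 4531 kb apart (quartiles 835 and 12913 kb), against 127 kb over all shared regions, of which there are many more. This distance depends on the fold limit. With a limit of 25, which leaves 32 others, the median was 427 kb, although these regions are fewer. The nearest other shared region, whether a member or not, was a median of 28.8 kb from a member of the 166 and 57.4 kb from a non-member. Another shared region stood within 10 kb of 52 of the 166 (31.3%) and of 15.5% of the non-members. With gaps under 100 kb, 31 of the 181 members formed 12 clusters of 2 to 4 and 150 stood alone. The closest pairs among the 166 were at chromosome 15, 101811739 and 101816053 (189 bp apart), chromosome 1, 85101457 and 85103771 (356 bp), and chromosome 10, 7229381 and 7230953 (409 bp). Because overlapping peaks were merged, no list can hold a peak across the gap between any regions, these pairs included. Counting distances only among the 166, the most isolated were the 2 on chromosome 9, at 15484302 and 107191169, which are 91703122 bp apart with 1 region set apart between them, and the one at chromosome 4, 46699987 to 46704719, whose nearest neighbour was 83746140 bp away.

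Chromosome 14 held the most of the 166. It had 29 of them (17.5%) and 5.57% of all shared regions, and 7.77% of its shared regions were members. They ran from 20884226 to 121681549 and had median folds of 20.1 to 26.2, so all lay near the threshold. By number, chromosomes 1 (17) and 11 (16) came next, and they also hold many shared regions (7.01% and 9.16%). As a share of the chromosome's own shared regions, chromosome 16 followed with 5.02% (13 of the 166) and chromosome 15 with 3.82% (12), and chromosome 9 was lowest with 0.518% (2). The fold of the non-members relative to the library median did not order the chromosomes in the same way. It was above 1 in 7 of the 8 libraries on chromosome 14 (median over libraries 1.05, range 1.00 to 1.12) and in 6 on chromosome 16 (1.17, 0.909 to 1.23). It was also above 1 in 6 libraries on chromosome 17 (1.07), which held 5 of the 166 (3.01% against 4.26% of the shared regions), and chromosomes 15 and 9 both had a median of 1. The part of this general height in the number of members was not tested. Among the highest shared regions of a single library, 157 to 190 with ties, chromosome 14 took 6.99% (FS_Ia replicate 2) to 15.6% (FS_Ca replicate 1).

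**Figure D4:**
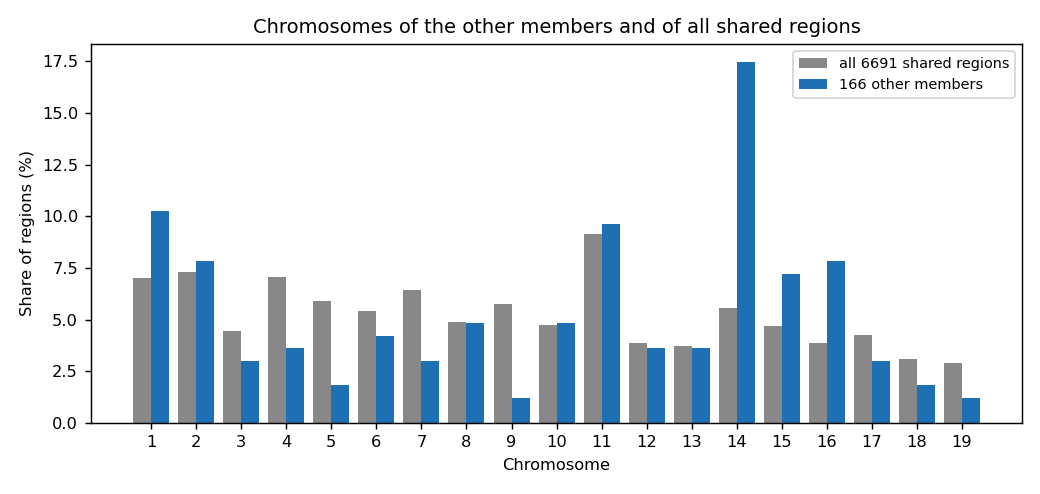
Share (%) of the 6691 shared regions (grey) and of the 166 other members (blue) on each of chromosomes 1 to 19. Chromosome 14 holds 17.5% of the members and 5.57% of the shared regions.

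Along the chromosomes the 166 were spread widely. With each chromosome divided into 3 equal parts up to its last region, the first held 28.3%, the middle 35.5% and the last 36.1% of the 166, against 25.5%, 31.4% and 43.1% of the non-members. Of the 15 set apart, 8 were in the first part, 7 of them there by the rule. At the end of chromosome 12, which holds Igh, no member was found. The last 4 shared regions of that chromosome, between 114080670 and 114462624, had median folds of at most 14.3. Of all shared regions of chromosome 12, 2.32% were among the 166, so the absence of members from so few regions is no finding. The rule also asks for a peak in all lists, and the genotypes carry deletions at this locus.

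Agreement between libraries was of unlike kinds in the divisions of the members. Spearman's rho of the fold between 2 libraries, over 28 pairs of libraries, was 0.907 to 1.00 across the 15 set apart (median 0.975), which span a wide range of heights. Across the 166 it was -0.12 to 0.570 (median 0.313), and across the 6510 non-members 0.206 to 0.680 (median 0.517). The range of heights among the 166 is narrow, which lowers a rank correlation. Libraries of the same genotype had a median rho of 0.331 across the 166 over 4 pairs, and libraries of different genotypes 0.313 over 24 pairs. The lowest rho was that of FS_Ia replicate 2 and PS_Ia replicate 1. Regions are not independent replicates, so these values carry no p.

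To see the members in data that had not chosen them, the rule was applied to 7 libraries and the regions were looked up in the one left out. This gave 134 to 229 others and 14 or 15 set apart. In 7 of the 8 libraries left out, every one of the others held a peak, and in PS_Ia replicate 1 185 of 187 did, whereas 78.8% to 99.9% of the non-members chosen alike did. The median percentile rank in the library left out, where 0 is its strongest peak, was 0.383 to 3.73 for the others, 0.0179 to 0.0753 for those set apart and 7.95 to 37.2 for the non-members. A fold of 20 or more was found again in 12.2% (PS_Ca replicate 2) to 88.1% (PS_Ca replicate 1) of the others, and in 0.147% to 12.3% of the non-members. These shares also depend on the background of the library left out. Within the strongest 5% of the library left out were 56.8% (PS_Ca replicate 2) to 99.3% (PS_Ia replicate 2) of the others and 4.45% to 31.9% of the non-members. Median rank was thus above that of the non-members in each library left out, but single members moved: with all 8 libraries, 26 of the 181 were among as many highest shared regions in every library, and 104 were among them in 4 or fewer.

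**Figure D5:**
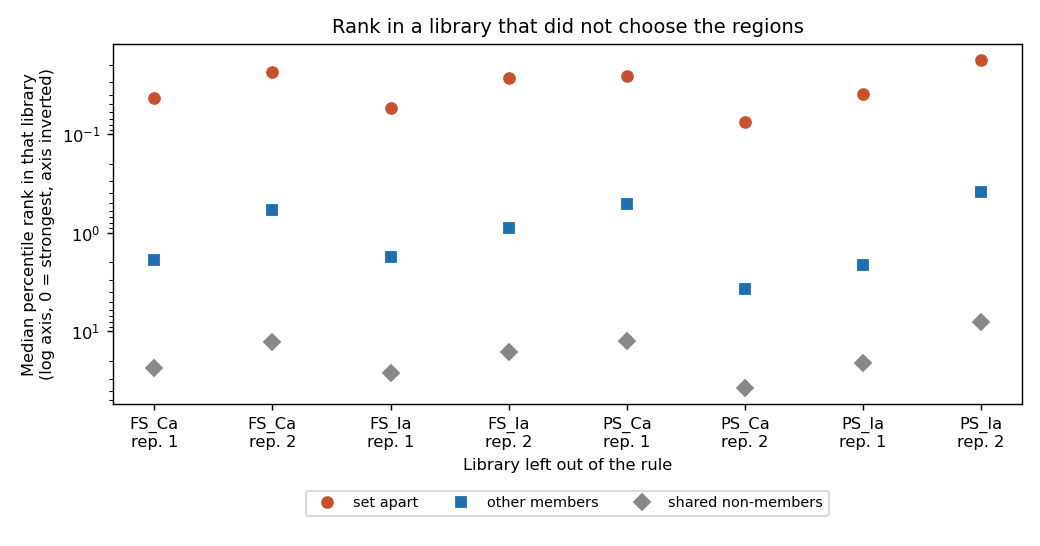
Median percentile rank (log axis, inverted, 0 is the strongest peak of the list) in each library of regions chosen with the other 7. In all 8 libraries the regions set apart rank first (0.0179 to 0.0753), the other members next (0.383 to 3.73) and the shared non-members last (7.95 to 37.2).

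Genotype was then compared at each region. Within each library the fold was ranked over the 6691 shared regions, so that all libraries ranked the same regions, and the normal scores of the ranks were fitted with limma. No member differed between Ia and Ca, between PS and FS or in the interaction of both at a Benjamini-Hochberg adjusted p under 0.05, and 0% of all 6691 regions did in each of the 3 comparisons (lowest adjusted p 0.9997, 0.908 and 0.950). At an unadjusted p under 0.05, limma had 2 of the 181 members (1.10%) between Ia and Ca against 288 regions (4.30%) in all, 7 members (3.87%) between PS and FS against 353 (5.28%), and 7 (3.87%) in the interaction against 306 (4.57%). All of these members were among the 166. Ranks limit what can be seen in the tallest regions. The region at chromosome 2, 98506279, ranked first in every library, so its normal scores could not differ whatever its fold. Only regions held by all 8 lists were compared, so a region lost in 1 genotype could not enter.

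The size of difference that stays within the error was read from the same fit on the log2 fold relative to the library median. The 95% interval of a member's difference reached a median of 0.51 to either side among the 166 and 0.53 among the 15, or 1.42-fold and 1.45-fold. For the tallest region, at chromosome 2, 98506279, Ia minus Ca was 0.15 (-0.36 to 0.66) and PS minus FS -0.31 (-0.82 to 0.20). For the leading one of the 166, at chromosome 15, 74915858, the differences were -0.04 (-0.53 to 0.45) and 0.06 (-0.43 to 0.55). Over the 166 they ran from -0.62 to 0.78 for Ia minus Ca and from -0.82 to 0.97 for PS minus FS. The unadjusted interval held 0 in 159 and 155 of the 166 respectively and in all 15 set apart for both. At an unadjusted p under 0.05, limma on this scale had 7 and 11 members, against 295 and 390 of all 6691 regions. The members that leave out 0 are therefore no finding. Differences of up to about the bounds of these intervals are not shown to be absent.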

How the data were processed

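Rad21 ChIP-seq peak lists of 8 libraries were used. Per the submitters' processing notes, Bowtie2 2.4.4, SAMtools 1.15.1, deepTools 3.5.1 and MACS2 2.2.7.1 with mm9 were used by the authors. Settings, read filters and the use of an input library: not given in the sources used here. Peaks were deposited per library and not pooled. The deposited lists give, by the authors' peak caller, a score, the fold enrichment at the summit (a ratio), −log10 p, −log10 q and, as another number, the summit's offset within its peak. The folds rise in equal steps, from which background and summit heights were computed on the assumption that 1 fragment is added to both. In each list 100% of heights came out whole within 0.05 fragments. On that assumption 1 constant background fits all folds of a list, so no local or input background shows in the folds.

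Overlapping peaks (1 bp) were merged, and the highest fold per list was taken. The members and all measures were chosen with earlier results of these data known. Region ranks over the 6691 shared regions were turned into normal scores and fitted with limma 3.58.1 (R 4.3.3) on 4 genotype means with all 8 libraries. The remaining steps used matplotlib 3.10.9, scipy 1.17.1, pandas 2.3.3 and numpy 2.4.6 under Python 3.11.15. Merging, ranking and the fit were tested on simulated data. Intervals and heights cover counting error and the spread between libraries only.

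Regions named were all those set apart, the 12 tallest of the others, the 5 with the highest and the 5 with the lowest SD, the 3 widest and 3 narrowest, the 3 closest pairs, the 3 most isolated and the 3 on either side of the threshold. The stretch of chromosome 1 and the regions named for their summit spans were chosen after their values were seen. Alternatives were other fold limits, the mean or lowest fold, percentile ranks, a stricter threshold, merging of summits, other scales and blocks in limma, and each library left out in turn.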

Additional observations from a re-analysis of the deposited data

Results flagged for a closer look

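Single libraries lay far from the other 7 in 5 of the 45 regions named by rule (Dixon's test, gap above 0.526 of the range). Chance flags about 1 in 20 groups, but no comparison with that share can be made here, since regions were named by height and spread in these same libraries. FS_Ia replicate 2 was the high one in 4 of them. Its fold was 112 at chromosome 17, 13743442, where the others had 26.5 to 61.9, and 105 at chromosome 16, 11422780, where they had 15.1 to 44.0. It was 41.7 at chromosome 17, 27656603 (others 4.41 to 20.8) and 39.2 at chromosome 10, 7230953 (others 20.8 to 29.3). PS_Ca replicate 1 was the high one at chromosome 15, 11900952 (29.3; 17.6 to 22.9).

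Of 6 library medians examined in this way, 2 had a library far from the rest. Most of these medians come from the folds that chose the members, and they overlap each other. A comparison with chance is therefore not possible for them either. The median fold of the 166 members relative to that of all shared regions was 2.57 in FS_Ia replicate 2 and 1.92 to 2.16 in the others. The median percentile rank of the 166 was 2.97 in PS_Ca replicate 2, the shortest list, and 0.280 to 1.25 in the others.

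Outside chromosomes 1 to 19, 5 regions held by all 8 lists passed the same height and entered no comparison. On chromosome X these were at 4664560 to 4673175 (median fold 21.5, range 13.4 to 33.7), 73843828 to 73844559 (36.4, 31.9 to 59.9), 166526870 to 166527643 (97.8, 66.8 to 123) and 166649835 to 166650296 (72.8, 47.2 to 87.5). The mitochondrial genome was a single region of 16299 bp with a median fold of 24.5 and a range of 8.51 to 82.6.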

How the results depend on the processing

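The number of members follows the fold limit: a minimum of 15 gave 874 (858 besides those set apart) and 25 gave 46 (32), and a fold of 20 in the lowest of the 8 lists gave 27 (15, with the border of 80 also read on the lowest fold, which the region at chromosome 1, 85265393, does not reach). With the limits of 15 and 25 the median distance between neighbours was 756 and 427 kb and the median span of summits 190 and 148 bp. The mean in place of the median gave 182 members, of which 152 of the 181 were kept, and the best percentile ranks kept 150. Leaving out 1 library gave 148 to 244 members (134 to 229 besides those set apart, 14 or 15 set apart), median distances of 2706 to 5738 kb (2706 kb without PS_Ca replicate 2 and 2810 kb without FS_Ca replicate 1, against 4531 kb), median widths of 3119 to 3750 bp and summit spans of 149 to 176 bp. The stricter threshold gave 178 members and summit merging 171. A border at 60 or 120 set apart 19 or 13. All 40 other limma fits called 0 regions, with 141 to 577 regions and 0 to 14 members at an unadjusted p under 0.05; with each library left out, each of the 3 comparisons ranged from 0 to 0 calls. With the replicate number as a block, 0 regions were called in each comparison. Deviations of libraries with the same number correlated by -0.20 to 0.33 over 6 pairs of genotypes (0.07 between PS_Ca and PS_Ia, where the number also goes with a prefix of the peak names), so the numbers were not taken to pair the libraries. Summits of few fragments limit what can be told apart in PS_Ca replicate 2, where a member was as low as a fold of 4.41.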
